A study of Mus musculus with 8 samples.

Results

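A set of 9 chemokine genes and the gene for the macrophage growth factor Csf1 were followed in mouse embryonic fibroblasts (MEFs) given hydrogen peroxide. The 10 genes (Ccl2, Ccl7, Ccl9, Cxcl1, Cxcl2, Cxcl5, Cxcl10, Cxcl12, Cxcl16 and Csf1) were picked by symbol from a table of 19041 genes, and all 10 were in it. The libraries compared cells whose Stat3, a transcription factor activated by cytokines, was either native (-/-WT cells) or the C3S form, in which cysteines had been replaced so that the protein no longer responded to oxidation (-/-C3S cells). Both lines were derived from immortalised Stat3 fl/fl MEFs in which Cre had removed the endogenous gene, so that all 4 groups lacked it. An MSCV retroviral vector put back WT-Stat3 or Stat3-C3S together with GFP. Each line was a polyclonal sorted population (Thy1.1, then GFP), so a difference between the lines is a difference between 2 sorted populations as well as between 2 forms of Stat3, which cannot be told apart here. Basal cells received no treatment and the others 100 µM H2O2 for 2 h, with 2 libraries in each of the 4 groups.

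Chemokines are small secreted proteins that steer leukocytes along a gradient by engaging receptors on the leukocyte surface, and fibroblasts are a major source of them in injured tissue. Ccl2 and Ccl7 draw monocytes, Cxcl1, Cxcl2 and Cxcl5 draw neutrophils, and Cxcl10 draws activated T cells and is induced by interferon. Cxcl12 is made continuously by stromal cells to retain haematopoietic cells, Cxcl16 is made as a membrane-anchored protein that proteases can shed, and Csf1 keeps macrophages alive.

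Several of these genes sit together in the genome (mm10 coordinates, GENCODE M21). Ccl2 (chr11:82035571-82037453) and Ccl7 (chr11:82045712-82047525) are neighbours on the plus strand, 8258 bp apart. Cxcl5 (chr5:90759360-90761624), Cxcl1 (chr5:90891241-90893115) and Cxcl2 (chr5:90903871-90905938) lie in that order on the plus strand of chromosome 5, with 129616 bp between the first pair and 10755 bp between the second. Cxcl10 (chr5:92346638-92348889) is on the minus strand of the same chromosome, and Ccl9 (chr11:83572919-83578636) and Cxcl16 (chr11:70453983-70459984) are on the minus strand of chromosome 11. Csf1 (chr3:107741048-107760469, minus strand) and Cxcl12 (chr6:117168535-117181367, plus strand) stand alone.

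The 250 bases before the start of transcription are shown for 4 of the genes, since the neighbours Cxcl1 and Cxcl2 were at very different levels, Cxcl10 went the other way from most of the genes, and Csf1 was at nearly the same level in both lines. The sequences are RefSeq promoters of GRCm38.p6, written 5′ to 3′ on the strand of the gene, and 6 of the 10 genes had one in the table used (Ccl2, Ccl7, Cxcl5 and Cxcl16 did not). Capitals mark a match to the NF-κB consensus, except that in Cxcl10 the first run in capitals is an interferon-type element (GAAANNGAA) and the last an AP-1 element (TGANTCA). The window is chr5:90890995-90891244 for Cxcl1, chr5:90903649-90903898 for Cxcl2, chr5:92348890-92349139 for Cxcl10 and chr3:107760470-107760719 for Csf1.
Cxcl1: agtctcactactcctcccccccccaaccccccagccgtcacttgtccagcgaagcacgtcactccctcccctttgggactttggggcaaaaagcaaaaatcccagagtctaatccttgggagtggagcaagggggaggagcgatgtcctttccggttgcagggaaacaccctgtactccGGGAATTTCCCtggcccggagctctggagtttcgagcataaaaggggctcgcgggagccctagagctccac
Cxcl2: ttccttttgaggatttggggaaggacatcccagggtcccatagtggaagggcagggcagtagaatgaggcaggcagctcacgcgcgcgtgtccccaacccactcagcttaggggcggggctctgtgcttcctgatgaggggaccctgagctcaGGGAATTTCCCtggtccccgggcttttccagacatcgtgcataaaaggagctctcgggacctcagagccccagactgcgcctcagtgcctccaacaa
Cxcl10: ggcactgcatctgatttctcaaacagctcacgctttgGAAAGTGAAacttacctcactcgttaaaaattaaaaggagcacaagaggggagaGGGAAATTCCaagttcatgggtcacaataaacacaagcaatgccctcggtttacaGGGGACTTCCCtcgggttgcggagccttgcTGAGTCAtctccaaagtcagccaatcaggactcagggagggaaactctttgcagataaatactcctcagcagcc
Csf1: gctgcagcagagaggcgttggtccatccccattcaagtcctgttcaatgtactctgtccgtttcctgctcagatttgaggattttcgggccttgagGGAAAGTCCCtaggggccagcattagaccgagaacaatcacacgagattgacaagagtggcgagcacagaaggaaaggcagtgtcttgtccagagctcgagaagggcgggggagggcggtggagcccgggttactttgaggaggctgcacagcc
Cxcl1 and Cxcl2 hold the same 11-base run, marked in capitals in both, which contains overlapping matches to the NF-κB consensus on opposite strands. It starts 71 bases before the start of Cxcl1 and 97 bases before that of Cxcl2. Motifs were searched on both strands of the full windows of 300 bases (250 before and 50 after the start). The NF-κB consensus was found in 8.46% of all 32851 promoters in the table, GAAANNGAA in 8.56% and TGANTCA in 7.81%. Ccl9 also held a match to the NF-κB consensus and 1 to TGANTCA, while the Cxcl12 window held none of the motifs. The Stat-type elements TTCCNGGAA (1.15% of promoters) and TTCNNNGAA, which contains it (8.3%), were not found in any of the 6 windows. These are matches of letters only, without mismatches. With a wider promoter window, the study reported Stat3 binding at the Csf1 promoter in -/-WT cells given the cytokine LIF.

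Levels of different genes were compared per kilobase of the longest coding transcript, as the mean of the 2 libraries of a group. Csf1 and Cxcl12 stood far above the other genes. In basal -/-WT cells Csf1 had 2849 normalised counts per kb, above 97.4% of the 13391 tested genes with a known length, and Cxcl12 had 2203 (above 96.5%). Ccl2 followed at 519, Cxcl1 at 281 and Ccl7 at 130.5 normalised counts per kb. Cxcl5 (67.8), Cxcl16 (37.9), Ccl9 (17.1) and Cxcl10 (16.7) were lower, and Cxcl2 was at 0.

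**Figure D1:**
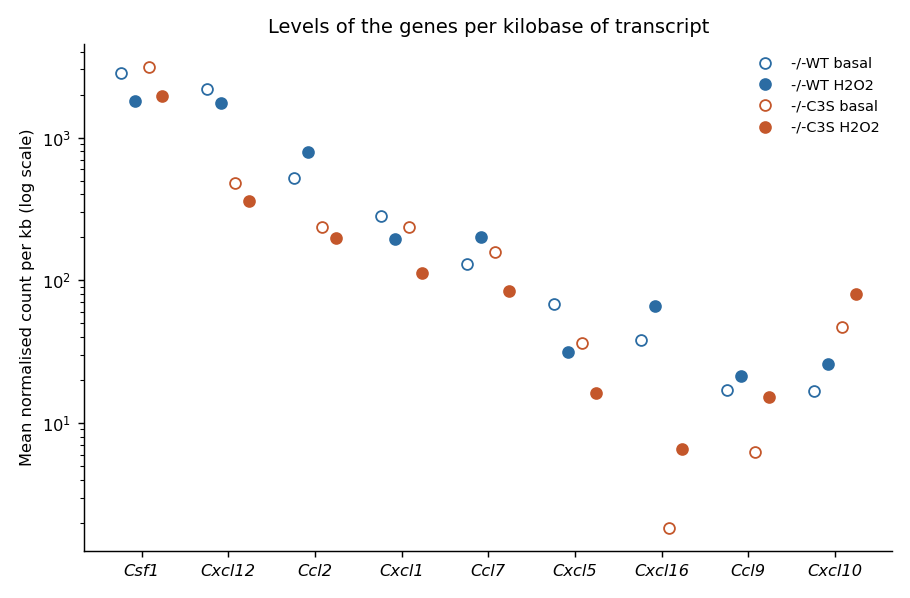
Mean normalised read count per kilobase (log scale) of 9 of the genes in each group, ordered by the level in basal -/-WT cells. Each point is the mean of 2 libraries, with open circles for basal and filled circles for H2O2-treated cells. Csf1 kept the highest level per kb in every group, Cxcl12 dropped from 2203 to 479.9 between basal -/-WT and -/-C3S cells, and Cxcl16 was the lowest in both -/-C3S groups.

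In basal -/-C3S cells Csf1 was still the highest, at 3120.5 normalised counts per kb, but Cxcl12 had only 479.9. Of the sum of the 9 tested genes per kb, Csf1 made up 46.5% and Cxcl12 36.0% in basal -/-WT cells, against 72.2% and 11.1% in basal -/-C3S cells. Cxcl10 made up 0.272% of that sum in basal -/-WT cells and 2.84% in H2O2-treated -/-C3S cells. These sums depend on Csf1 and Cxcl12, the most abundant members.

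Libraries held 17050016 to 22260814 expected counts, and 13538 genes had a mean expected count of at least 10 in some group and were tested. Values below are normalised counts, that is, counts divided by a size factor per library. Differences were tested with the edgeR quasi-likelihood F-test and Benjamini-Hochberg adjustment over all 13538 genes. A gene is said to have risen or fallen when its adjusted p was under 0.05, and is counted as called when the change was also at least 2-fold. Of the 10 genes, 9 passed the filter on low counts, and Cxcl2 did not. The libraries of a group are described as biological replicates, but nothing says how the cultures were kept apart, so p-values measure only the spread between these libraries. In bulk RNA, fewer cells making a transcript and less transcript per cell cannot be told apart.

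Stat3 itself, the gene set by the design, was measured in every library. It had 8464 and 8835 normalised counts in basal and 7527 and 7425 in treated -/-WT cells, against 5019.8 and 5160.5 in basal and 4650.4 and 4788 in treated -/-C3S cells. The -/-C3S libraries were lower by -0.76 on the log2 scale at baseline (edgeR adjusted p = 1.71e-21) and by -0.66 after H2O2 (1.23e-23). Counts per gene do not separate the 2 vector-borne forms or show protein, so they do not check which form a library carries. Its part in the differences below was not tested.

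**Figure D2:**
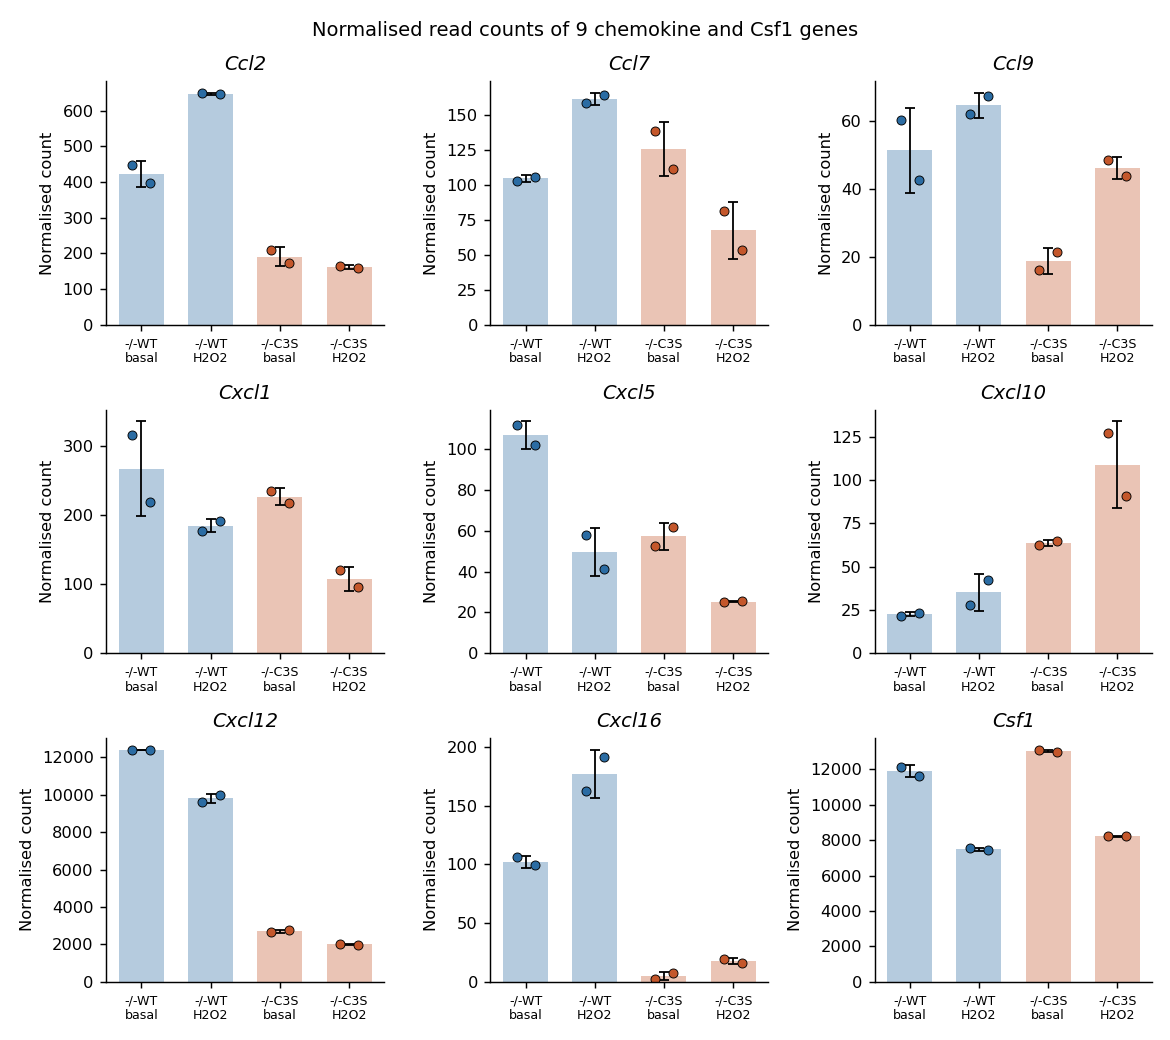
Normalised read counts of 9 of the genes in each library (points), with the group mean (bars) and SD (error bars, n = 2 libraries), -/-WT in blue and -/-C3S in orange. Ccl2 and Ccl7 were highest in H2O2-treated -/-WT cells (means of 648 and 162) and lowest in H2O2-treated -/-C3S cells (162 and 67.6), while Csf1 dropped alike in both lines.

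The monocyte-attracting genes Ccl2 and Ccl7 were those whose response to H2O2 differed between the lines. Ccl2, the main ligand of Ccr2 on monocytes, had 448 and 396 normalised counts in basal and 650.1 and 646 in H2O2-treated -/-WT libraries. The -/-C3S libraries had 209.8 and 172 before and 166 and 158 after H2O2. All 4 -/-WT libraries were thus above all 4 -/-C3S libraries, and the highest values were those of treated -/-WT cells. Ccl2 rose in -/-WT cells by a log2 fold change of 0.62 ± 0.0808 (SE throughout; edgeR adjusted p = 8.49e-10), that is, 1.53-fold. In -/-C3S cells the difference was -0.23 ± 0.142 (adjusted p = 0.222) with a 95% interval of -0.53 to 0.07. The difference between the 2 responses was -0.84 ± 0.156 on the log2 scale (edgeR interaction test, adjusted p = 0.000238). At baseline Ccl2 was 2.23-fold lower in -/-C3S than in -/-WT cells (log2 fold change -1.16, adjusted p = 3.87e-13), and after H2O2 it was 4.00-fold lower (adjusted p = 2.17e-25). Cd14, a monocyte marker described below, also rose in -/-WT cells. Of the 5 tested macrophage and monocyte markers it was the 1 that passed the interaction test, with a lower response in -/-C3S cells. Over all tested genes 3.35% passed in that direction. Its adjusted p was 0.0189 by edgeR and 0.0995 with DESeq2. The interactions of Csf1r, Cd68 and Mrc1 were above 0 (1.18, 0.78 and 0.68) and that of Itgam was -0.81.

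Ccl7, a second ligand of Ccr2, moved in opposite directions in the lines. It had 103 and 106 normalised counts in basal and 159 and 165 in treated -/-WT libraries. In -/-C3S cells it had 139 and 112 before and 81.9 and 53.3 after H2O2. Both basal -/-C3S libraries were above both basal -/-WT libraries, but the difference did not pass the test (log2 fold change 0.25, 95% interval -0.09 to 0.60, edgeR adjusted p = 0.207), whereas after H2O2 each -/-C3S library lay below each -/-WT library. Ccl7 rose in -/-WT cells by 0.63 ± 0.157 (adjusted p = 0.000611) and fell in -/-C3S cells by 0.88 ± 0.208 (adjusted p = 0.00222) on the log2 scale. The interaction was -1.51 ± 0.253 (adjusted p = 5.9e-05). After H2O2 the -/-C3S cells had 2.39-fold less Ccl7 (log2 fold change -1.26, adjusted p = 2.59e-08). The decrease in -/-C3S cells was -0.73 with an adjusted p of 0.0628 when -/-C3S basal replicate 1 was left out, and the difference after H2O2 was just under 2-fold (-0.98) without -/-C3S H2O2 replicate 2. Ccl2 and Ccl7 transcripts share no run of bases longer than 23, which is shorter than the reads.

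Ccl9, a ligand of Ccr1 known from mouse, differed in pattern from both Ccl2 and Ccl7. It had 60.2 and 42.6 normalised counts in basal and 62.0 and 67.2 in treated -/-WT libraries. The -/-C3S libraries had 16.1 and 21.5 before and 48.4 and 43.9 after H2O2, so the basal -/-C3S libraries were the only low ones. Ccl9 rose 2.41-fold in -/-C3S cells (log2 fold change 1.27 ± 0.326, edgeR adjusted p = 0.00421), with a value of 0.32 ± 0.242 in -/-WT cells (adjusted p = 0.286). The interaction, 0.94 ± 0.403, did not pass the test (adjusted p = 0.129), so the 2 responses were not shown to differ. The lines differed at baseline (-1.44, adjusted p = 0.00015) but the difference after H2O2 was -0.50 ± 0.250 (adjusted p = 0.0755). The call in -/-C3S cells was lost with DESeq2 (adjusted p = 0.0506) and without -/-C3S basal replicate 1 (1.07, adjusted p = 0.053).

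The neutrophil-attracting genes fell with H2O2 in both lines. Cxcl1, a ligand of Cxcr2, had 316 and 219 normalised counts in basal and 178 and 192 in treated -/-WT libraries. It had 236 and 218 in basal and 120.1 and 95.6 in treated -/-C3S libraries. The basal libraries of the lines overlapped, with a wide gap between the 2 basal -/-WT libraries, and the treated -/-C3S libraries were the lowest. Cxcl1 fell by 0.54 ± 0.132 on the log2 scale in -/-WT cells (edgeR adjusted p = 0.000674) and by 1.07 ± 0.149 in -/-C3S cells (adjusted p = 9.83e-06). The first of these rested on -/-WT basal replicate 1, without which it was -0.25 (adjusted p = 0.196), and the second was under 2-fold (-0.92) without -/-C3S H2O2 replicate 2. At baseline the lines differed by -0.24 (95% interval -0.52 to 0.03, adjusted p = 0.123), a value that was 0.05 without -/-WT basal replicate 1 and -0.48 (adjusted p = 0.000509) without -/-WT basal replicate 2. After H2O2 Cxcl1 was 1.71-fold lower in -/-C3S cells (-0.77, adjusted p = 1.62e-05). The interaction of -0.53 ± 0.216 had an adjusted p of 0.111, which was 0.00761 without -/-WT basal replicate 1 (-0.82).

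Cxcl5, a further ligand of Cxcr2, fell in both lines to a similar degree. Its normalised counts were 112 and 102 in basal and 57.9 and 41.5 in treated -/-WT libraries. They were 52.8 and 62.1 in basal and 25.1 and 25.6 in treated -/-C3S libraries, so within each treatment the -/-C3S libraries were the lower ones. The change was -1.10 ± 0.210 in -/-WT cells (edgeR adjusted p = 1.01e-05) and -1.18 ± 0.279 in -/-C3S cells (adjusted p = 0.00213), and the interaction was -0.09 with a 95% interval of -0.80 to 0.62 (adjusted p = 0.913). Between the lines Cxcl5 was lower in -/-C3S cells by -0.89 at baseline (adjusted p = 0.000158) and by -0.97 after H2O2 (adjusted p = 0.00536). Several of these results each depended on 1 library or on the test. The 2-fold call in -/-WT cells was lost without -/-WT H2O2 replicate 2 (-0.88), and that in -/-C3S cells without -/-C3S basal replicate 2 (-1.05, adjusted p = 0.0563). The baseline difference reached 2-fold without -/-C3S basal replicate 2 (-1.02). The difference after H2O2 had an adjusted p of 0.0717 with DESeq2 and of 0.136 without -/-WT H2O2 replicate 1 (-0.71), and reached 2-fold without -/-WT H2O2 replicate 2 (-1.19).

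Cxcl2, the neighbour of Cxcl1, was not detectable at this depth. A single count (0.941 normalised) in -/-C3S basal replicate 2 was the only one in 8 libraries. A count of 0 allows up to 3 counts, or 2.38 to 3.60 normalised counts depending on the library, and this limit covers counting error only. Cxcl2 shares 5.84% of its 50-base words with Cxcl3, the next gene of the family, and how reads shared by both were counted was not tested, but Cxcl3 had only 0 to 3 counts summed over the libraries of each group. The Cxcl1 and Cxcl2 promoters printed above hold the same NF-κB match, while Cxcl1 had 95.6 to 316 normalised counts per library and Cxcl2 almost none.

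Cxcl10 was the gene of the set with higher levels in -/-C3S cells beyond 2-fold. The 4 -/-WT libraries had 21.7 and 23.4 normalised counts at baseline and 27.8 and 42.5 after H2O2. The -/-C3S libraries had 62.3 and 64.9 at baseline and 127 and 91.1 after H2O2, all above the highest -/-WT library. The difference between the lines was 2.82-fold at baseline (log2 fold change 1.49 ± 0.289, edgeR adjusted p = 1.22e-05) and 3.11-fold after H2O2 (1.63 ± 0.241, adjusted p = 4.04e-08). H2O2 treatment was associated with a rise of 0.77 ± 0.206 in -/-C3S cells (adjusted p = 0.00547) and a value of 0.63 ± 0.352 in -/-WT cells (adjusted p = 0.14), and the interaction was 0.14 (95% interval -0.66 to 0.94, adjusted p = 0.872). The rise in -/-C3S cells did not pass with DESeq2 (adjusted p = 0.0585). It was also lost without -/-C3S basal replicate 1 (0.75, adjusted p = 0.0559), without -/-C3S basal replicate 2 (0.80, adjusted p = 0.0578) and without -/-C3S H2O2 replicate 1 (0.51, adjusted p = 0.0998). Art3, which overlaps Cxcl10 by 133 exon bases on the opposite strand, had 0 to 2 counts per library.

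Cxcl12, the ligand of Cxcr4, was far lower in -/-C3S cells at both treatments. It had 12384 and 12407 normalised counts in basal and 9632 and 9963 in treated -/-WT libraries. It had 2640.0 and 2761 in basal and 2023 and 1989 in treated -/-C3S libraries. The lines did not come near each other, and within each line both treated libraries lay below both basal ones. Cxcl12 was 4.59-fold lower in -/-C3S cells at baseline (log2 fold change -2.20 ± 0.0474, edgeR adjusted p = 4.24e-42) and 4.88-fold lower after H2O2 (-2.29 ± 0.0396, adjusted p = 1.5e-47). The fall with H2O2 was small, 0.34 ± 0.0376 on the log2 scale in -/-WT cells (adjusted p = 2.86e-12) and 0.43 ± 0.0479 in -/-C3S cells (adjusted p = 5.63e-07). The interaction was -0.09 with a 95% interval of -0.21 to 0.03 (adjusted p = 0.351).

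Cxcl16, the membrane-anchored ligand of Cxcr6, was nearly lost from basal -/-C3S cells. It had 106 and 99.0 normalised counts in basal and 162 and 191 in treated -/-WT libraries. In -/-C3S cells it had 2.40 and 7.53 before H2O2, from 2 and 8 expected counts, and 19.7 and 15.6 after it. Treated libraries were above basal ones in both lines, and every -/-WT library was several times above every -/-C3S library. At baseline Cxcl16 was 19.0-fold lower in -/-C3S cells (log2 fold change -4.25 ± 0.356, edgeR adjusted p = 1.34e-15), or -5.34 without -/-C3S basal replicate 2, and after H2O2 it was 9.96-fold lower (-3.32 ± 0.234, adjusted p = 7.57e-19). H2O2 raised it by 0.79 ± 0.156 in -/-WT cells (adjusted p = 1.98e-05) and by 1.73 ± 0.592 in -/-C3S cells (adjusted p = 0.0264), and the interaction of 0.93 did not pass (95% interval -0.14 to 2.01, adjusted p = 0.275).

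The rise of Cxcl16 in -/-C3S cells rested on few counts and was lost with DESeq2 (adjusted p = 0.147), without -/-C3S basal replicate 1 (1.21, adjusted p = 0.188) and without -/-C3S H2O2 replicate 1 (1.55, adjusted p = 0.0923), while without -/-C3S basal replicate 2 it was 2.81 (adjusted p = 0.0411). Zmynd15, a gene on the opposite strand that shares 552 exon bases with Cxcl16, also rose with H2O2. It went from 4 and 6 to 48 and 36 expected counts in -/-WT cells (log2 fold change 2.71, edgeR adjusted p = 4.07e-06) and from 1 and 3 to 20 and 8 in -/-C3S cells (2.80, adjusted p = 0.00712). Zmynd15 passed the filter on low counts only through the treated groups. The libraries were directional, but whether the counting used strand is not stated, and 16.9% of the 50-base words of Cxcl16 transcripts occur in Zmynd15 transcripts. The part of Zmynd15 reads in the Cxcl16 counts was not tested.

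Csf1 was the most abundant gene of the set per kb and, of the 9 tested, the one with the smallest difference between the lines at both treatments. It had 12150.1 and 11642 normalised counts in basal and 7531 and 7417 in treated -/-WT libraries. It had 13089.6 and 12973 in basal and 8205 and 8210.0 in treated -/-C3S libraries. Basal and treated libraries were far apart in both lines, and the -/-C3S libraries were slightly above the -/-WT libraries of the same treatment. H2O2 lowered Csf1 1.59-fold in each line (log2 fold change -0.67 ± 0.0384, edgeR adjusted p = 9.69e-26 in -/-WT cells, and -0.67 ± 0.0381, adjusted p = 3.65e-11 in -/-C3S cells). The interaction was 0.00 with a 95% interval of -0.10 to 0.11 (adjusted p = 0.984). The -/-C3S excess was 1.10-fold at both treatments (0.13, adjusted p = 0.00613 at baseline and 0.14, adjusted p = 0.000517 after H2O2). At baseline it no longer passed without -/-WT basal replicate 2 (0.10, adjusted p = 0.0772), -/-C3S basal replicate 1 (0.12, 0.0851) or -/-C3S basal replicate 2 (0.14, 0.0559).

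**Figure D3:**
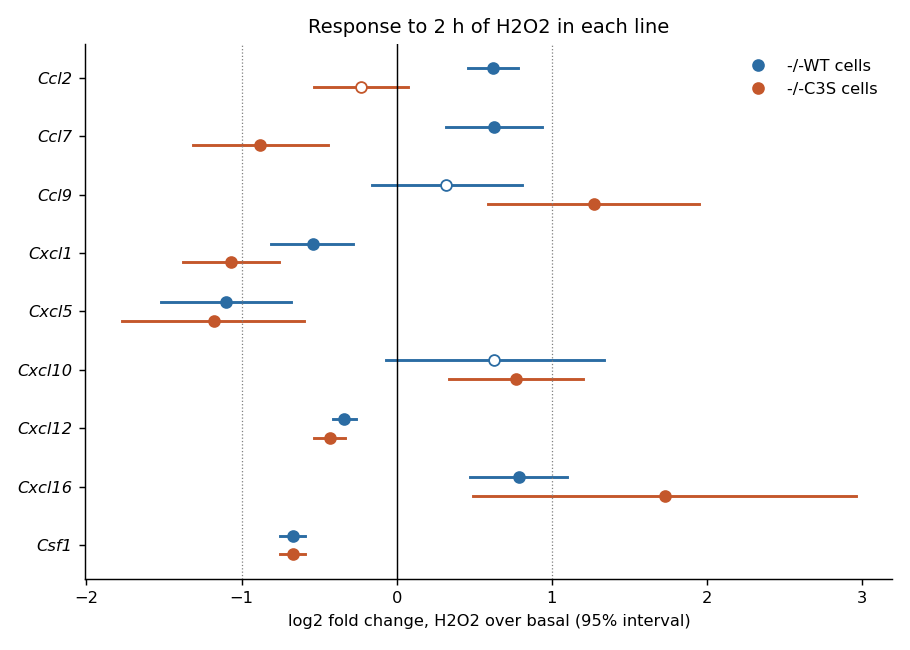
Log2 fold change of H2O2-treated over basal cells for 9 of the genes, with 95% intervals from the edgeR fit of each line (4 libraries each). Filled points passed an adjusted p of 0.05, open points did not, and dotted lines mark a 2-fold change. Ccl2 and Ccl7 lie on opposite sides of 0 in the 2 lines (0.62 and -0.23, 0.63 and -0.88), and the Csf1 points coincide at -0.67.

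Taking the genes as a set, H2O2 moved them in both directions. In -/-WT cells 3 of the 9 tested genes rose (Ccl2, Ccl7 and Cxcl16) and 4 fell (Cxcl1, Cxcl5, Cxcl12 and Csf1), beside 44.2% of all tested genes that passed the adjusted p, 18.1% upwards and 26.2% downwards. Only Cxcl5 was called at 2-fold, a decrease, where 9.36% of all tested genes were called (7.59% higher and 1.77% lower). The median log2 fold change was 0.32 for the 9 genes and -0.017 for all 13538. In -/-C3S cells 3 of 9 rose (Ccl9, Cxcl10 and Cxcl16) and 5 fell (Ccl7, Cxcl1, Cxcl5, Cxcl12 and Csf1), beside 38% of all tested genes passing the adjusted p (17.2% higher and 20.8% lower). Called were 4, Ccl9 and Cxcl16 higher and Cxcl1 and Cxcl5 lower, against 8.65% of all tested genes (7.17% higher and 1.48% lower). The median was -0.43 for the 9 genes and -0.008 for all genes. With DESeq2 only the 2 lower calls were made.

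In the interaction test Ccl2 and Ccl7 were the 2 of 9 genes that passed, both with a lower response in -/-C3S cells, beside 12.5% of all tested genes passing at any fold (9.18% with a higher and 3.35% with a lower response). Ccl7 alone was called at 2-fold, as were 1.4% of all tested genes (0.997% with a higher and 0.406% with a lower response). The 2 genes passed in each of the 8 fits that left out 1 library, with values between -0.99 and -0.71 for Ccl2 and between -1.85 and -1.23 for Ccl7.

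**Figure D4:**
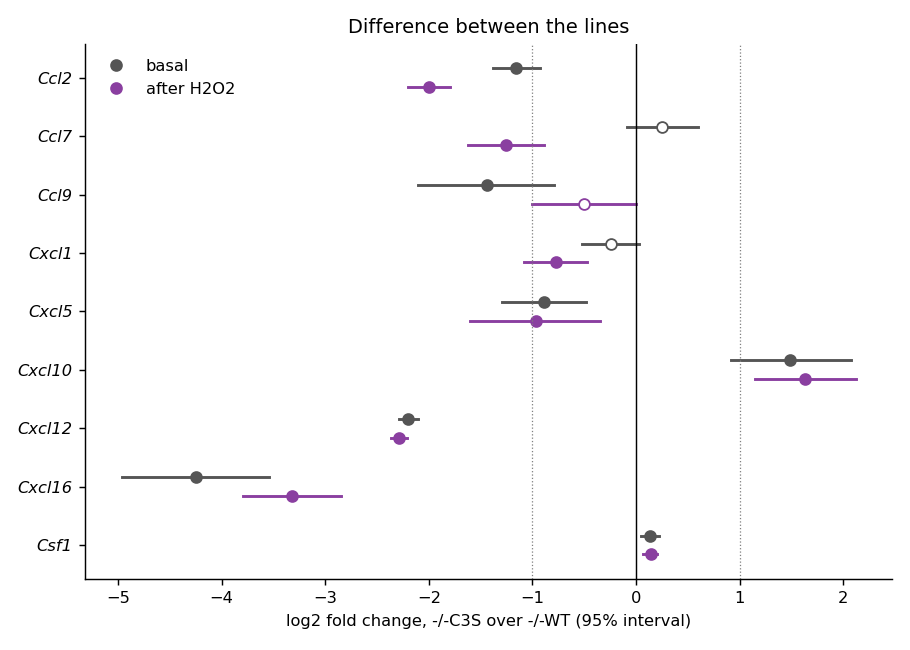
Log2 fold change of -/-C3S over -/-WT cells for 9 of the genes, at baseline (grey) and after H2O2 (purple), with 95% intervals from edgeR fits of 4 libraries each. Filled points passed an adjusted p of 0.05 and dotted lines mark a 2-fold change. Cxcl12 and Cxcl16 lie beyond -2 at both treatments, and Cxcl10 beyond 1.

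Between the lines, most of the genes were lower in -/-C3S cells. At baseline 5 of 9 were lower (Ccl2, Ccl9, Cxcl5, Cxcl12 and Cxcl16) and 2 higher (Cxcl10 and Csf1), beside 57.2% of all tested genes passing the adjusted p (28.5% higher and 28.7% lower). At 2-fold, 4 were called lower and 1 higher, against 15.4% of all tested genes called, 6.07% higher and 9.37% lower. After H2O2, 6 were lower (Ccl2, Ccl7, Cxcl1, Cxcl5, Cxcl12 and Cxcl16) and 2 higher (Cxcl10 and Csf1), beside 64.4% of all tested genes (32.5% higher and 31.9% lower). Here 4 were called lower (Ccl2, Ccl7, Cxcl12 and Cxcl16) and 1 higher (Cxcl10), against 18.5% of all tested genes called, 7.83% higher and 10.6% lower. The median of the 9 genes was -0.89 at baseline and -0.97 after H2O2, where the medians of all genes were -0.004 and -0.017. The comparisons share groups of libraries, so their counts are not independent of each other.

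Other chemokine genes were mostly silent in these cells. Of 32 listed, 22 were in the table and 7 had enough counts to be tested. With H2O2, edgeR and DESeq2 each called 0 of the 7 in either line. Over all tested genes edgeR called 9.36% in -/-WT and 8.65% in -/-C3S cells. By edgeR 0 passed the adjusted p in -/-WT cells (1 at an unadjusted p under 0.05) and 2 passed it in -/-C3S cells (3 unadjusted), where DESeq2 passed 0 in both. The edgeR shares of all tested genes passing the adjusted p were 44.2% in -/-WT and 38% in -/-C3S cells. Ppbp, a platelet-type ligand of Cxcr2, was higher in -/-C3S cells at baseline (log2 fold change 2.58, edgeR adjusted p = 1.18e-13) and after H2O2 (2.69, adjusted p = 3.01e-16), with group means of 21.0, 25.1, 127 and 163 normalised counts in basal and treated -/-WT and basal and treated -/-C3S cells. Ccl20, which attracts cells bearing Ccr6, was lower in -/-C3S cells at both treatments (edgeR adjusted p = 0.0192 and 0.00619), but on 1 to 36 counts summed per group, and neither passed with DESeq2 (adjusted p = 0.119 and 0.0708). Cxcl15 had 8.66 and 15.7 expected counts in treated -/-WT cells and 0 in treated -/-C3S cells, at least 5.99-fold lower when 3 counts over the group are taken as the limit (adjusted p = 0.00024). Ccl20 and Cxcl15 passed the filter on low counts only through treated -/-WT cells. Their direction between the lines was therefore partly set by the filter. The median of the 7 was 0.26 in -/-WT and 0.30 in -/-C3S cells for H2O2 against basal, 0.05 between the lines at baseline and 0.16 after H2O2.

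Among the receptors for the members, Ackr3 and Cxcr2 had the most counts. Of 24 receptor genes listed, 20 were in the table and 7 were tested, and the other 5 had group means of 0 to 19.9 normalised counts. Cxcr2, the receptor of Cxcl1 and Cxcl5, had 78.0 and 99.4 normalised counts in basal and 85.7 and 93.1 in treated -/-WT libraries, and 91.1 and 76.9 before and 112 and 113 after H2O2 in -/-C3S libraries. It is named after its values were seen, as it passed in none of the comparisons (edgeR adjusted p of 0.0636 to 0.968). Ackr3, a scavenging receptor that binds Cxcl12, had 221 and 243 normalised counts in basal and 121 and 112 in treated -/-WT libraries, and 98.3 and 108 in basal and 85.3 and 89.0 in treated -/-C3S libraries. It fell by 1.00 on the log2 scale with H2O2 in -/-WT cells (edgeR adjusted p = 7.92e-09) and had a value of -0.25 in -/-C3S cells (adjusted p = 0.29), with an interaction of 0.75 (adjusted p = 0.0215, and 0.131 with DESeq2). At baseline it was lower in -/-C3S cells (-1.16, adjusted p = 7.61e-10), as Cxcl12 was. Cxcr4, the signalling receptor of Cxcl12, had 15 and 15 expected counts in basal and 12 and 10 in treated -/-WT cells and none in any -/-C3S library. It was thus at least 9.72-fold lower at baseline (adjusted p = 1.45e-05) and at least 5.41-fold lower after H2O2 (adjusted p = 0.000485), with the limit of 3 counts taken over the group. Ccr7 passed the test between the lines after H2O2 (adjusted p = 0.0027) on 17 and 6 against 1 and 0 expected counts, but not with DESeq2 (adjusted p = 0.0562). Cxcr4 and Ccr7 passed the filter on low counts only through -/-WT cells. That they were lower in -/-C3S cells was therefore partly set by the filter, and the medians below include both. The receptor of Csf1, Csf1r, had at most 12.1 expected counts in a library and is treated with the macrophage markers below. The medians of the 7 receptors were 0.10 in -/-WT and 0.43 in -/-C3S cells for H2O2, and -1.16 at baseline and -0.39 after H2O2 between the lines, the baseline value becoming -0.69 when genes at 0 are set to their limits.

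Cytokines for other blood cells were examined beside Csf1. Of 15 listed, 9 were tested, and the calls with H2O2 (3 in -/-WT and 2 in -/-C3S cells) were increases. Over all tested genes, 7.59% and 7.17% were called higher in these comparisons. Il11, a gp130 cytokine, rose in both lines (log2 fold change 1.49, edgeR adjusted p = 6.03e-05, and 2.65, adjusted p = 2.45e-08). Csf3, which drives neutrophil production, rose in -/-WT cells (2.60, adjusted p = 0.00351, and 0.0687 with DESeq2) with a value of 0.71 in -/-C3S cells (adjusted p = 0.4). Its interaction was -1.89 (adjusted p = 0.242), so the responses were not shown to differ. Csf3 passed the filter on low counts only through treated -/-WT cells. Lif, a gp130 cytokine that is named after its values were seen, was the only one of the 9 called in the interaction (1.17, edgeR adjusted p = 1.74e-07). In that test 1.4% of all tested genes were called, 0.997% with a higher response in -/-C3S cells. It had 299 and 290.3 normalised counts in basal and 784 and 731 in treated -/-WT libraries, and 112 and 129 before and 698 and 710.4 after H2O2 in -/-C3S libraries. Lif thus rose in both lines (1.36, adjusted p = 4.96e-24, and 2.54, adjusted p = 2.73e-13), from a lower level in -/-C3S cells. Between the lines at baseline 3 were called higher in -/-C3S cells and 2 lower, beside 6.07% and 9.37% of all tested genes. Tslp, an epithelial-type cytokine for dendritic cells, was higher (3.22, adjusted p = 7.14e-15) and Il33, an alarmin, was lower (adjusted p = 3.44e-09, with group means of 34.8 and 0.471 normalised counts). Il33 passed the filter on low counts only through -/-WT cells. Csf1 itself had no 2-fold call in any of these comparisons. The median of the 9 cytokines was -0.16 and 0.07 with H2O2 in -/-WT and -/-C3S cells, and 0.79 and 0.19 between the lines at baseline and after H2O2.

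NF-κB, whose subunits drive many inflammatory chemokine genes, and its regulators were examined as a list. All 22 listed genes were tested. With H2O2, edgeR and DESeq2 each made 0 calls at 2-fold in -/-WT cells, where 8 rose and 3 fell by edgeR (8 and 5 at an unadjusted p under 0.05), and edgeR made 1 in -/-C3S cells, where 7 rose and 2 fell. Over all tested genes, 18.1% rose and 26.2% fell in -/-WT cells, and 17.2% and 20.8% in -/-C3S cells. At 2-fold, 9.36% and 8.65% of all tested genes were called. The call in -/-C3S cells was Nfkbia, the inhibitor that the pathway induces against itself, which rose by 0.83 in -/-WT cells (edgeR adjusted p = 3.56e-21) and by 1.48 in -/-C3S cells (adjusted p = 3.3e-13). The interaction was 0.65 (adjusted p = 8.73e-07). At baseline 12 of the 22 were lower in -/-C3S cells and 2 higher, beside 28.7% and 28.5% of all tested genes. Beside 9.37% of all tested genes, 6 of the 22 were called lower (5 with DESeq2). Among them, Nfkbie, a further inhibitor, was at -2.53 (adjusted p = 5.53e-20) and Bcl3, a coactivator of NF-κB, at -2.09 (adjusted p = 3.21e-11). After H2O2, the 5 calls were all lower in -/-C3S cells, where 10.6% of all tested genes were called lower. Tnfrsf1b, a TNF receptor, showed the same order of groups as Ccl2: it rose in -/-WT cells (0.48, adjusted p = 3.49e-06), had a value of -0.25 in -/-C3S cells (adjusted p = 0.116) and an interaction of -0.73 (adjusted p = 0.000687). The median of the 22 genes was 0.09 and 0.11 with H2O2 in the 2 lines, and -0.32 and -0.27 between the lines.

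Genes for the release, presentation and mRNA decay of chemokines gave few calls. Of 15 listed, 14 were tested. With H2O2, 9.36% of all tested genes were called in -/-WT and 8.65% in -/-C3S cells. Zfp36, which binds AU-rich elements and promotes decay of cytokine mRNAs, rose with H2O2 in both lines (log2 fold change 1.56, edgeR adjusted p = 8.14e-36 in -/-WT cells, and 1.28, adjusted p = 4.55e-12 in -/-C3S cells) and was the only call in those 2 comparisons. Mmp2, a protease that can cleave Cxcl12 and Ccl7, was lower in -/-C3S cells (-2.92 at baseline, adjusted p = 3.21e-34, and -3.42 after H2O2, adjusted p = 1.55e-37). Zfp36l2, a relative of Zfp36, was higher there (1.09, adjusted p = 6.77e-29, and 1.00, adjusted p = 4.63e-31). The medians of the 14 genes were -0.14 and -0.07 with H2O2, and 0.11 and 0.10 between the lines.

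Marker genes were checked because macrophages and endothelial cells also make these chemokines. Fibroblast markers were abundant in every library, with 206049 to 271008 normalised counts summed over the 9 of 10 listed genes in the table, and the sum was lower after H2O2 in both lines. All 9 fell with H2O2 in -/-WT cells (3 at 2-fold) and 7 fell in -/-C3S cells, where edgeR and DESeq2 each made 0 calls at 2-fold (7 genes passed an unadjusted p under 0.05). Over all tested genes, 26.2% fell in -/-WT cells (1.77% called lower) and 20.8% in -/-C3S cells (1.48%). At baseline 3 of the 9 were called lower and 1 higher in -/-C3S than in -/-WT cells. After H2O2, 3 were called lower and 3 higher. The matching shares of all tested genes were 9.37% and 6.07% at baseline, and 10.6% and 7.83% after H2O2. The macrophage and monocyte list (9 of 10 in the table) summed to 133 to 165 normalised counts in basal and 369 to 384 in treated -/-WT libraries, and to 64.0 to 81.4 and 195 to 214 in -/-C3S libraries. Of its 5 tested genes, 4 were called higher with H2O2 in each line (2 in -/-WT and 3 in -/-C3S cells with DESeq2). Over all tested genes, 7.59% were called higher in -/-WT cells and 7.17% in -/-C3S cells. Itgam, Csf1r and Mrc1 reached the filter on low counts only in treated cells. The number of higher calls was therefore partly set by the filter. Itgam went from 1 and 0 to 52.5 and 53 expected counts in -/-WT cells and from 1 and 2 to 71.1 and 48.1 in -/-C3S cells. Csf1r was at 1.19 and 2.01 in basal and 12.1 and 8.10 in treated -/-WT libraries. With DESeq2 Csf1r passed in neither line (adjusted p = 0.209 in -/-WT and 0.147 in -/-C3S cells). Cd68 rose in both lines by edgeR (0.63, adjusted p = 0.0405, and 1.41, adjusted p = 0.00261), as did Mrc1 (1.55, adjusted p = 0.0243, and 2.22, adjusted p = 0.004). With DESeq2 Cd68 and Mrc1 passed in -/-C3S cells (adjusted p = 0.0285 and 0.0349) but not in -/-WT cells (0.245 and 0.189). Cd14, a monocyte receptor for lipopolysaccharide, was, like Ccl2, highest in treated -/-WT cells. Its normalised counts were 99.8 and 92.5 in basal and 225 and 242 in treated -/-WT libraries, and 46.8 and 40.5 before and 45.9 and 62.2 after H2O2 in -/-C3S libraries. Cd14 rose in -/-WT cells (1.28, edgeR adjusted p = 1.13e-11), had a value of 0.32 in -/-C3S cells (adjusted p = 0.365) and an interaction of -0.96 (adjusted p = 0.0189, and 0.0995 with DESeq2). No other tested gene of this list passed the interaction test. The part of Cd14, and of any cells that it might mark, in the Ccl2 and Ccl7 results was not tested.

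The other leukocyte list (7 of 9 in the table) summed to 19.8 to 23.4 normalised counts in basal and 81.9 to 103 in treated libraries of either line. Of its 3 tested genes, Cd79a of B cells went from 3 counts or fewer in every basal library to 51 or more in every treated one. Cd79a passed the filter on low counts only through the treated groups. S100a8 of neutrophils and Coro1a of leukocytes were not shown to change with H2O2 (edgeR adjusted p of 0.31 to 0.903). The endothelial list (5 of 6 in the table) summed to 83.0 and 106 in basal and 106 and 101 in treated -/-WT libraries, and to 243 and 248 before and at most 215 after H2O2 in -/-C3S libraries. Its 2 tested genes went opposite ways. Pecam1 went from group means of 0.494 to 22.2 in -/-WT and 0.471 to 20.9 in -/-C3S cells. It also passed the filter only through the treated groups. Kdr, the more abundant one, had means of 93.7 and 77.3 in -/-WT cells (log2 fold change -0.27, edgeR adjusted p = 0.264) and fell from 240.0 to 182 in -/-C3S cells (-0.40, adjusted p = 0.014), being higher in -/-C3S cells at both treatments (1.36 and 1.23). The defining leukocyte gene Ptprc stayed at 0 to 3 counts per library, and Fcer1g and Tyrobp had 0 to 4 counts summed per group. Cdh5 of endothelium had none in -/-WT cells and 1 to 3 counts in each -/-C3S library. More genes had at least some counts after H2O2 (15734 to 16681 per library) than before it (14445 to 15052). The part of these transcripts in the rises of Ccl2, Ccl7, Ccl9, Cxcl10 and Cxcl16 was not tested.

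Finally, the 2 genes nearest to each member in pattern were found, by the root mean square distance of centred log2(normalised count + 1) over the 8 libraries among 9860 genes with a mean of at least 100 normalised counts. Cxcl12 was closely matched by Armcx4 (distance 0.07) and Ablim1 (0.08). Ccl2 was nearest to Psme2 (0.16) and Psme1 (0.17), the genes for the subunits of an interferon-inducible proteasome activator, with means of 581, 713, 244 and 210.0 normalised counts for Psme2 in basal and treated -/-WT and basal and treated -/-C3S cells. Ccl7 was nearest to 2610524H06Rik and Sfrp2 (both 0.23), Ccl9 to Klhl24 and Nr4a2 (both 0.23), and Cxcl1 to Map3k11 and Zfp746 (both 0.16). Cxcl5 was nearest to 9930012K11Rik (0.13) and Plekhg3 (0.20), and Cxcl10 to Nlrc3 (0.20) and F3 (0.21). Cxcl16 had the largest distances to its nearest genes, Chn2 (0.43) and Bmf (0.49). Its group means also had the widest span (4.90 on the log2 scale), with few counts in -/-C3S cells, and distances were not scaled to the span. Csf1 and Cxcl2 were outside this search, because the group means of Csf1 spanned under 1 on the log2 scale and Cxcl2 was too low. These distances describe 8 libraries and carry no test.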

How the data were processed

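RNA from 8 libraries of mouse embryonic fibroblasts was sequenced on an Illumina instrument as single-end reads from directional libraries. Per the labels, the reads were mapped to mm10 with TopHat2 2.0.10, and the study used uniquely mapped reads. The counting program is not given in the sources used, nor is its use of strand. The first sheet of the deposited workbook held expected counts per gene, of which 58.4% of the values above 0 were whole, and these were rounded for the tests. The second sheet held the signal normalised by the authors, which equalled those counts divided by median-of-ratios size factors. The first sheet's header calls its values normalised, although library totals differ in it. A further 24 columns of the 2 sheets hold the authors' group means, SDs and columns for a plot, and were not used. Rows whose symbol had turned into a date number (27 rows, 0.28% of counts) were kept in library totals and named nowhere.

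Groups came from the labels. Columns named Rep1 and Rep2 were matched to groups only, since the titles use letters. Genes with a mean expected count of at least 10 in 1 of the 4 groups were tested (13538 tested, 5503 left out) with edgeR 4.0.16 (limma 3.58.1, R 4.3.3), using the quasi-likelihood F-test on the 4 libraries of each pair of groups, and on all 8 for the interaction of line and H2O2. The pipeline was tested on simulated data with known changes. Alternatives were TMM scaling, no filter, DESeq2 1.42.0, a fit of all 8 libraries, a replicate block, no fold minimum, and leaving out each library. All 10 members are named whatever their values. From the other lists, all genes are named where 5 or fewer were tested, and otherwise at most 4 genes called in some comparison, those with the largest change, with Cxcr2 and Lif added after their values were seen. The members and lists were chosen with earlier results of these data known. Gene models (GENCODE M21, with 98.5% of the 19041 rows matched by symbol) gave positions and the longest coding transcript for levels per kb. Without knowledge of the isoform used, levels per kb are approximate.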

Additional observations from a re-analysis of the deposited data

Results flagged for a closer look

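The response of Ccl2 to H2O2 differed between the lines, with an interaction of -0.84 on the log2 scale (edgeR adjusted p = 0.000238): it was higher after H2O2 in -/-WT cells in 2 of 2 libraries and not shown to change in -/-C3S cells. The response of Ccl7 differed by -1.51 (edgeR adjusted p = 5.9e-05), being higher after H2O2 in both -/-WT libraries and lower in both -/-C3S libraries.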

How the results depend on the processing

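With no fold minimum, the members passing were 7 in -/-WT cells and 8 in -/-C3S cells for H2O2, 8 between the lines after H2O2 and 2 in the interaction, where 1, 4, 5 and 1 were called at 2-fold. DESeq2 called 2 members for H2O2 in -/-C3S cells, where it called 816 of all 13538 tested genes against 1171 by edgeR. Leaving out 1 library at a time gave 0 to 1 members called for H2O2 in -/-WT cells, 2 to 4 in -/-C3S cells, 5 to 6 between the lines at baseline, 4 to 6 after H2O2 and 1 in the interaction. In these fits the lone library of a group is assumed to vary like the others. They turned the sign of the Cxcl1 difference at baseline (-0.48 to 0.05) and of 3 interactions near 0, between -0.03 and 0.03 for Csf1, -0.30 and 0.17 for Cxcl5, and -0.14 and 0.47 for Cxcl10, and TMM scaling gave -0.04 for the Csf1 interaction. None of those interactions passed the test in any fit. The fit without a filter and the fit of all 8 libraries changed no call of a member.

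Replicate numbers are shared between groups, but the differences between replicates 1 and 2 correlated only weakly between groups (-0.015 to 0.164 over 9875 genes). This does not settle whether libraries of the same number shared a batch. The fit with a replicate block gave 1, 4, 5, 5 and 1 members called in the 5 comparisons, and the Cxcl1 interaction passed in it (-0.55, edgeR adjusted p = 0.0466). Gene lists other than the members were also tested with DESeq2, an alternative chosen after seeing the data. Over all genes, DESeq2 called 830 against 1267 for H2O2 in -/-WT cells and 116 against 190 in the interaction. The smallest counts, of Cxcl16 in basal -/-C3S cells and of Cxcl2 everywhere, limit what can be said of those genes.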
